A study of Mus musculus with 2 samples.

Results

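The genes described here are the major histocompatibility complex (MHC) and antigen presentation genes of the mouse: every gene whose symbol begins with H2-, together with Cd74, B2m, Tap1, Tap2, Tapbp, Psmb8, Psmb9, Ciita, Nlrc5, Cd80, Cd86, Cd40 and Cd1d1. They were selected by symbol and came to 42 of the 22508 genes in the table. Levels were read in healthy liver of 8-week-old C57BL/6 mice, profiled by droplet-based 3' single-cell RNA sequencing in 2 samples of 1 wild-type group. The livers were digested with enzymes, the cells were cleaned on a Percoll gradient, and no treatment or genotype was compared. The labels do not say whether the samples came from separate animals.

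Class I molecules are a heavy chain paired with beta-2 microglobulin (B2m), and they show peptides of proteins made inside the cell to CD8 T cells. Those peptides are cut by the proteasome, carried into the endoplasmic reticulum by the transporter Tap1-Tap2 and loaded with the help of tapasin (Tapbp). Class II molecules are made of an alpha and a beta chain, travel with the invariant chain (Cd74) and show peptides of engulfed proteins to CD4 T cells. In the liver, sinusoidal endothelial cells, Kupffer cells and dendritic cells all meet antigen arriving in portal blood, and stellate cells have also been studied as presenting cells. Mice of the b haplotype, to which C57BL/6 belongs, make no functional H2-E alpha chain, so the beta chain H2-Eb1 has no partner there at the cell surface.

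Replicate 1 held 7362 cells and 40645060 unique molecular identifiers (UMIs, counted molecules), and replicate 2 held 2341 cells and 11867207 UMIs. After a filter on genes and mitochondrial UMIs, 6300 cells of replicate 1 (93.1% of those kept) and 2199 of replicate 2 (93.9%) entered a type by a gate on marker UMIs, in which none of the 42 genes took part. The types are named from markers alone and are therefore called "-like". In 15 types at least 20 cells were found, and together these held 8460 cells. Stellate-like cells were 2198 of the gated cells of replicate 2 and 6 of replicate 1, and the other 14 types were read in replicate 1. No type thus had 20 cells in both samples, so there is no test, no replicate error and no p-value here. For stellate-like cells the type and the library cannot be told apart. 5 barcodes occurred in both samples. In 10 of the 15 types every marker was highest in its own type, which the gate largely fixes, and the fewest were in monocyte-like cells, with 5 of 8.

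Levels are given as CPM, the UMIs of a gene in the summed cells of a type, scaled to a total of 1000000 UMIs. Ranges in parentheses after them are exact Poisson intervals of 95%, and those after shares are exact binomial (Clopper-Pearson) intervals. Both cover counting error only, not differences between animals, and the Poisson intervals leave out variation from cell to cell. A 3' UMI counts a molecule once whatever its length, so levels are not scaled by gene length. Other differences between genes in how well they are counted were not corrected, so comparisons of different genes are approximate. Of the 42 genes, 39 had at least 50 UMIs over all gated cells. The others were the class II beta chain H2-Eb2 with 29 UMIs, of which 19 were in conventional dendritic-like cells, and the class I genes H2-Q1 with 18, of which 15 were in mesothelial-like cells, and H2-M5 with 12, of which 7 were in conventional dendritic-like cells. On mouse chromosome 17, 34 of the 42 genes lie together, and the 29 with an H2- symbol span chr17:33974659-37483552 of GRCm38 in the GENCODE annotation, from which all gene positions below are taken. B2m and Cd40 are on chromosome 2, Cd1d1 on 3, Nlrc5 on 8, Ciita, Cd80 and Cd86 on 16, and Cd74 on 18. Many H2 genes are near copies of each other, and how reads shared by such copies were counted is not given in the sources used here, so levels of H2-Q, H2-T, H2-K, H2-D and H2-DMb genes are uncertain to that extent.

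Class II genes separated the types into 5 that carried them and 10 that held at most traces. The summed level of the 3 measured class II chains, the alpha chain H2-Aa and the beta chains H2-Ab1 and H2-Eb1, was highest in conventional dendritic-like cells at 26002 CPM (25529.9 to 26480.1). Monocyte-like cells had 10970.1 CPM (10497 to 11459), B-like cells 8678 (8017 to 9378), plasmacytoid dendritic-like cells 6353 (6002 to 6719) and Kupffer-like cells 6053 (6009 to 6098). As a mean of CPM over cells, the monocyte-like level was 8933 CPM, outside its counting interval. Plasmacytoid dendritic-like and Kupffer-like cells did not differ beyond counting error, with a ratio of 1.05 (0.991 to 1.11). The next type, cholangiocyte-like cells, had 216 CPM (193 to 241), so that Kupffer-like cells stood 28.0-fold above it (25.1 to 31.4).

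Below that gap the sum was 166 CPM in vascular endothelial-like, 144 in mesothelial-like, 87.1 in hepatocyte-like and 83.6 in neutrophil-like cells. Sinusoidal endothelial-like cells, the most numerous type with 2845 cells, had 75.3 CPM (70.9 to 79.8). Portal fibroblast-like cells had 53.2, T-like cells 45.3, natural killer and innate lymphoid-like cells (NK and ILC1) 33.0, and stellate-like cells 21.3 CPM (18.7 to 24.3), the lowest value. Below the gap, only the steps from mesothelial-like to hepatocyte-like cells (ratio 1.65, 1.33 to 2.07) and from sinusoidal endothelial-like to portal fibroblast-like cells (1.42, 1.01 to 2.04) had intervals without 1, so the other neighbours did not differ beyond counting error. Without the gate's limit on markers of other types, the sum was 143 CPM in sinusoidal endothelial-like, 279.5 in mesothelial-like and 434 in hepatocyte-like cells. With the highest 5% of doublet scores left out, it was 56.4 CPM in sinusoidal endothelial-like and 133 in mesothelial-like cells. With at most 10% mitochondrial UMIs it was 55.5 CPM in hepatocyte-like cells. Conventional dendritic-like cells held 1219-fold (1071 to 1393) the level of stellate-like cells.

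**Figure D1:**
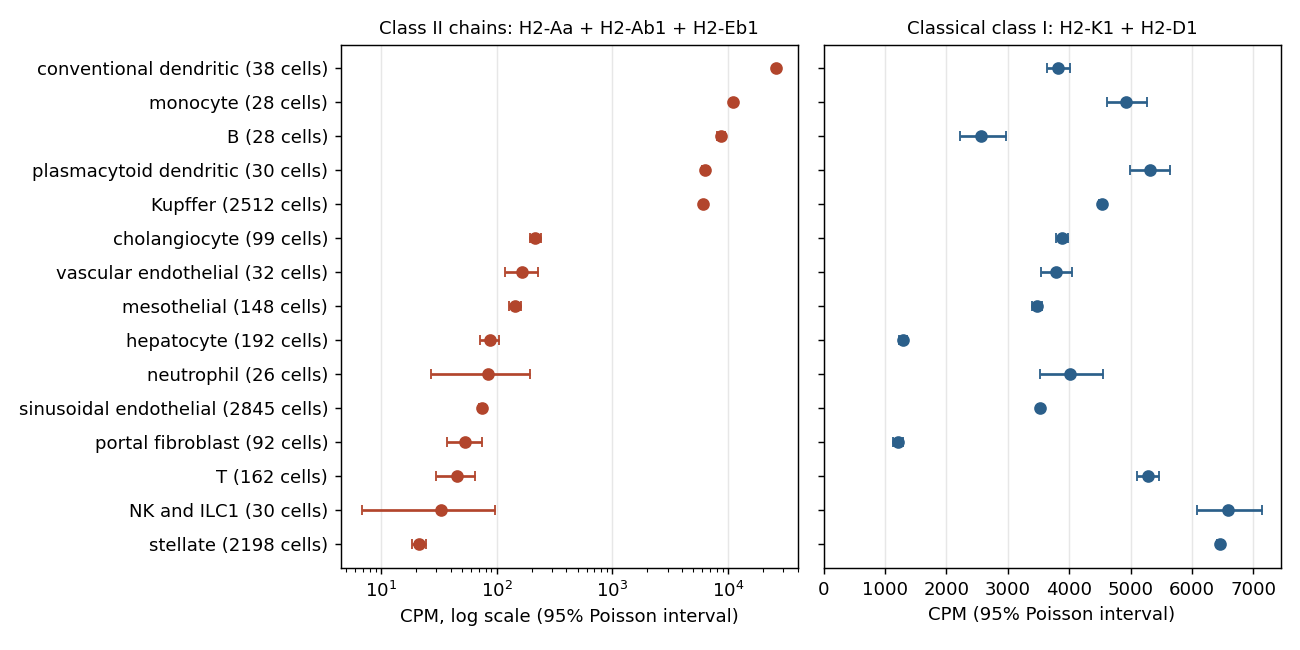
Summed level in CPM of the class II chains (left, log axis) and of the classical class I heavy chains (right, linear axis) in the 15 gated types, with points for the level and bars for the 95% Poisson interval. In the left panel 5 types lie at 6053 CPM or above and 10 at 216 CPM or below, while the right panel runs from 1207 to 6593 CPM with no such gap.

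The chains kept this split gene by gene. H2-Ab1 (chr17:34257689-34269419) was at 9175 CPM in conventional dendritic-like, 3682 in monocyte-like, 2516 in B-like, 2272 in plasmacytoid dendritic-like and 1964 in Kupffer-like cells, against 110.1 at most, in cholangiocyte-like cells, among the other 10 types. H2-Aa (chr17:34282744-34287823) ran from 8557 CPM in conventional dendritic-like to 2702 in Kupffer-like cells, and reached at most 58.2 elsewhere, in vascular endothelial-like cells. H2-Eb1 (chr17:34305867-34316674), the beta chain without an alpha partner in this strain, ran from 8269 CPM in conventional dendritic-like to 1331 in plasmacytoid dendritic-like cells, with at most 62.4 elsewhere. Its part in the 3-chain sum was 31.8% (31.0 to 32.7) in conventional dendritic-like and 34.0% (30.3 to 37.8) in B-like cells, but 22.9% (22.6 to 23.2) in Kupffer-like and 20.9% (18.7 to 23.3) in plasmacytoid dendritic-like cells. The mix of chains therefore differed between these types beyond counting error.

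The promoters of H2-Aa and H2-Eb1 are shown because these genes carry the split. They were taken from RefSeq (GRCm38.p6) as 175 bases before to 25 bases after the annotated start, H2-Aa at chr17:34287799-34287998 on the minus strand and H2-Eb1 at chr17:34305692-34305891 on the plus strand. Capitals mark the letters CTGATTGG, the Y box sequence to which the general factor NF-Y is known to bind in class II promoters, searched on both strands.
H2-Aa: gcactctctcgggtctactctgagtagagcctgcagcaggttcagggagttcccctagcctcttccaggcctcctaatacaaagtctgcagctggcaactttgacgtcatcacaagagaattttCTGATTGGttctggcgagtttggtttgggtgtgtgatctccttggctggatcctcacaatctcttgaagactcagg
H2-Eb1: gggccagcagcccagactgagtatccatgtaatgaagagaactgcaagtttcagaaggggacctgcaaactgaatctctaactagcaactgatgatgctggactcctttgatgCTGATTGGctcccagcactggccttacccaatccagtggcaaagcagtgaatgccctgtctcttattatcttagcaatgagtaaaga
The letters began 51 bases before the start in H2-Aa and 62 bases before it in H2-Eb1. They occurred in all 3 class II chain genes with a RefSeq promoter (H2-Eb2 was the other), in 12 of the 28 members with one, and in 4.10% of 32851 promoter windows of 300 bases. A match describes letters in a window and shows no binding.

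Counted per cell, class II was carried by most cells of the presenting types. When each cell was thinned to 1500 UMIs, at least 1 class II chain UMI was seen in 97.3% of 2111 Kupffer-like, 94.7% of 38 conventional dendritic-like, 93.3% of 30 plasmacytoid dendritic-like and all 26 B-like cells. The median was 40.5 UMIs per thinned cell in conventional dendritic-like, 13.5 in B-like, 8.5 in plasmacytoid dendritic-like and 7 in Kupffer-like cells. Monocyte-like cells were mixed: 42.3% of 26 had none, the median was 4 and the 90th percentile was 40. Thinning left out 401 Kupffer-like, 2 B-like and 2 monocyte-like cells of lower depth.

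**Figure D2:**
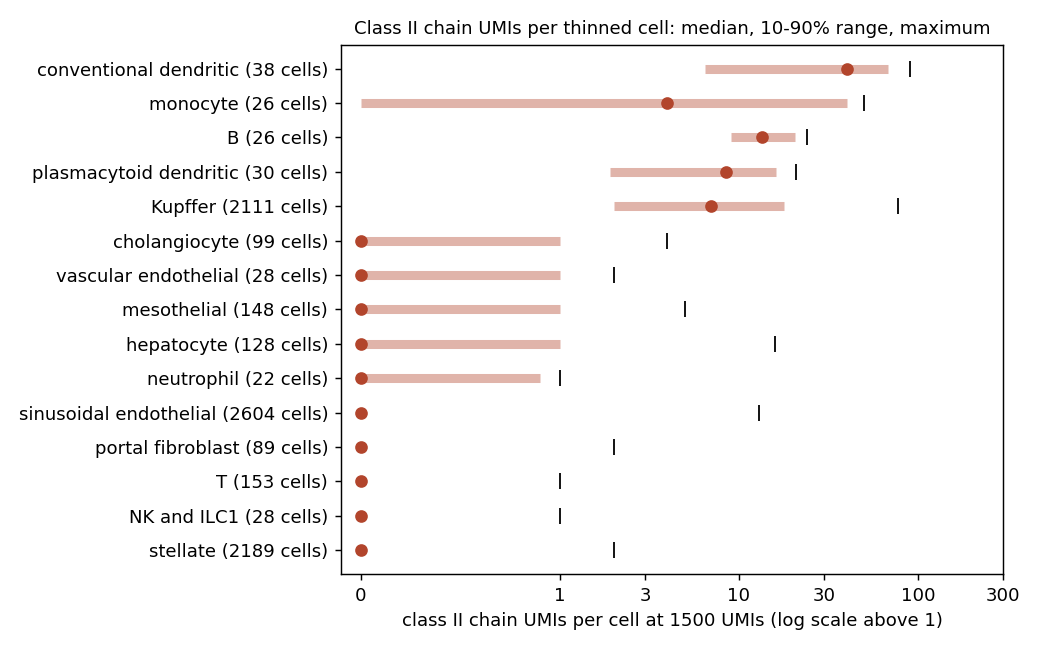
Class II chain UMIs per cell after thinning to 1500 UMIs (log scale above 1), by gated type, with the median as a point, the range from the 10th to the 90th percentile as a bar and the highest cell as a tick. The conventional dendritic-like median of 40.5 is the highest, the monocyte-like bar runs from 0 to 40, and all 10 lower types have a median of 0.

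The traces in other types were read against T-like cells, which are not expected to make class II in the mouse. H2-Ab1 was seen in 3.92% of 153 thinned T-like cells (1.45 to 8.34; 6.79% unthinned, median depth 3401 UMIs). In sinusoidal endothelial-like cells the share was 2.38% of 2604 (1.83 to 3.04, and 9% unthinned, median depth 4905), no higher than in T-like cells. A UMI of any of the 3 chains was seen in 7.80% of thinned sinusoidal endothelial-like and 3.92% of thinned T-like cells. The summed class II levels were 75.3 and 45.3 CPM, so no order is read from the H2-Ab1 share alone. H2-Ab1 was seen in 1.55% of 2189 stellate-like cells (1.08 to 2.16, and 4.19% unthinned, median depth 4924), and any of the 3 chains in 3.65%. That library held no T-like cells, so stellate-like cells have no background value of their own library. Cholangiocyte-like cells had 9.09% (4.24 to 16.6; 56.6% unthinned) and mesothelial-like cells 9.46% (5.27 to 15.4; 33.1% unthinned), with median depths of 9779 and 11782 UMIs. These H2-Ab1 intervals overlap that of T-like cells, while the summed level of 216 and 144 CPM lay above the T-like interval of 30.1 to 65.4. Any of the 3 chains was seen in 21.2% of thinned cholangiocyte-like and 17.6% of thinned mesothelial-like cells, against 3.92% in T-like cells. In sinusoidal endothelial-like cells the traces were unevenly spread, with up to 13 class II UMIs in a thinned cell and a variance of Cd74 of 4.66 times its mean, whereas in stellate-like cells that ratio was 0.967 and no cell had more than 2. All 7 Kupffer markers were also seen in sinusoidal endothelial-like cells, at a summed 126 CPM against 18972 in Kupffer-like and 102 in T-like cells. The same list stood at 2564 CPM in stellate-like cells, of which Cd5l and Clec4f made up 19.1 and 28.4 CPM. Most of that sum thus lay in other genes of the list, whose levels are not given here. The part of Kupffer material in that sum was not tested. Cd5l and Clec4f were at 32.1 and 39.7 CPM in sinusoidal endothelial-like and at 34.0 and 24.3 in T-like cells. The part of Kupffer material in the traces was not tested.

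The class II partners followed the chains, except for H2-O, the beta chain of H2-DM and, in the size of its differences, Ciita. Cd74, the invariant chain, was highest in conventional dendritic-like cells at 19929.7 CPM (19517 to 20349), then 12636 in B-like, 11117 in monocyte-like, 6457 in plasmacytoid dendritic-like and 5809 in Kupffer-like cells, with at most 262 elsewhere, in cholangiocyte-like cells. Per class II chain UMI, Cd74 was most abundant in B-like cells, where it made up 59.3% (56.8 to 61.7) of the Cd74 and chain UMIs, against 43.4% (42.7 to 44.1) in conventional dendritic-like and 49.0% (48.7 to 49.2) in Kupffer-like cells. Ciita, the transcriptional coactivator that switches class II genes on, was at 313 CPM (263 to 369) in conventional dendritic-like, 147 in monocyte-like and 122 in B-like cells. It was far lower in the other class II-bearing types, at 31.2 CPM (11.4 to 67.9) in plasmacytoid dendritic-like and 26.1 (23.3 to 29.2) in Kupffer-like cells. Stellate-like cells had 0 Ciita UMIs, which allows up to 0.274 CPM by the limit of 3 counts.

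H2-DM exchanges the invariant chain remnant for peptide. Its alpha chain H2-DMa was at 868 CPM in conventional dendritic-like, 532 in monocyte-like, 422 in B-like, 416 in plasmacytoid dendritic-like and 293 in Kupffer-like cells. Its beta chain exists as a gene pair, and the types used the pair differently. B-like cells had 680.1 CPM of H2-DMb2 (505 to 897) and 68.0 of H2-DMb1 (22.1 to 159), so that H2-DMb2 made up 90.9% (80.0 to 97.0) of their UMIs. In Kupffer-like cells H2-DMb2 was 5.20 CPM against 210.1 of H2-DMb1, a share of 2.42% (1.85 to 3.09). The share was 3.92% (1.08 to 9.74) in monocyte-like, 22.2% (18.0 to 26.9) in conventional dendritic-like and 18% (8.58 to 31.4) in plasmacytoid dendritic-like cells.

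H2-O restrains H2-DM. Its chains H2-Oa and H2-Ob summed to 626 CPM (458 to 835) in B-like and 484 (421 to 553) in conventional dendritic-like cells, which did not differ beyond counting error (ratio 1.29, 0.920 to 1.79). Plasmacytoid dendritic-like cells had 218 CPM (157 to 295), nearly all of it H2-Oa at 208 CPM against 10.4 of H2-Ob. B-like cells had more H2-Ob, 489.7 CPM, than H2-Oa, 136 CPM. Kupffer-like cells had 6.48 CPM (5.11 to 8.11) of the sum, and monocyte-like cells had 0 UMIs, which allows up to 16.3 CPM by the limit of 3 counts. Of the H2-O and H2-DM UMIs together, H2-O was 34.8% in B-like but 1.26% (0.993 to 1.57) in Kupffer-like cells.

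The costimulatory genes were ordered differently from class II. Cd86, a ligand of CD28 on T cells, was at 221 CPM (213 to 230.1) in Kupffer-like and 214 (173 to 261) in conventional dendritic-like cells, a ratio of 1.04 (0.844 to 1.29). Monocyte-like cells had 147 and B-like cells 81.6 CPM, no other type passed 10.4, and 5 types had 0 UMIs. Cd80, the other CD28 ligand, was at 29.2 CPM (15.6 to 50.0) in conventional dendritic-like and 24.6 (21.9 to 27.7) in Kupffer-like cells. The 50.2 CPM of Cd80 in neutrophil-like cells rests on 3 UMIs. Cd40, the receptor through which T cells license presenting cells, was at 86.9 CPM (49.7 to 141) in monocyte-like, 54.4 in B-like, 22.5 (19.9 to 25.4) in Kupffer-like and 18.0 in conventional dendritic-like cells. Stellate-like cells had 6.02 CPM of Cd40 (4.65 to 7.66) from 66 UMIs, and sinusoidal endothelial-like cells 2.28 (1.58 to 3.19). 6 types had 0 Cd40 UMIs.

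Class I, in contrast, was present in every type and spanned 5.46-fold (4.90 to 6.08). The classical heavy chains H2-K1 and H2-D1 summed to 6593 CPM (6076 to 7142) in NK and ILC1-like and 6452 (6405 to 6499.8) in stellate-like cells, which did not differ beyond counting error. Plasmacytoid dendritic-like cells had 5313, T-like 5282, monocyte-like 4931, Kupffer-like 4529, neutrophil-like 4012, cholangiocyte-like 3883, conventional dendritic-like 3823 and vascular endothelial-like 3788 CPM. Sinusoidal endothelial-like cells had 3518 CPM, mesothelial-like 3474, B-like 2571 (2217 to 2964), hepatocyte-like 1292 (1232 to 1355) and portal fibroblast-like 1207 (1125 to 1294). The order was therefore not that of class II: stellate-like cells were last for class II and second for class I. In thinned cells a classical class I UMI was seen in at least 92.9% of the cells of every type but hepatocyte-like (73.4%) and portal fibroblast-like cells (78.7%). The 6 stellate-like cells of replicate 1, with 12297 UMIs in all, had 10734 CPM of classical class I (8981 to 12729.5) and a median depth of 1070 UMIs.

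The balance of the 2 heavy chains was close to even in most types. H2-K1 (chr17:33996017-34000347) made up 42.6% to 60.5% of the H2-K1 and H2-D1 UMIs in 13 of the 15 types. In hepatocyte-like cells it made up 77.4% (75.4 to 79.4), with 1000.4 CPM of H2-K1 and 292 of H2-D1. In neutrophil-like cells it made up 17.5% (12.9 to 22.9), with 702 CPM of H2-K1 and 3309.9 of H2-D1 (chr17:35262730-35267499), the highest H2-D1 level of any type. That level did not differ beyond counting error from the 3239 CPM of stellate-like cells (ratio 1.02, 0.884 to 1.17). H2-K2, H2-Ke6 and H2-T-ps, which carry an H2- symbol but encode no classical chain, did not exceed 54.9 CPM in any type.

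**Figure D3:**
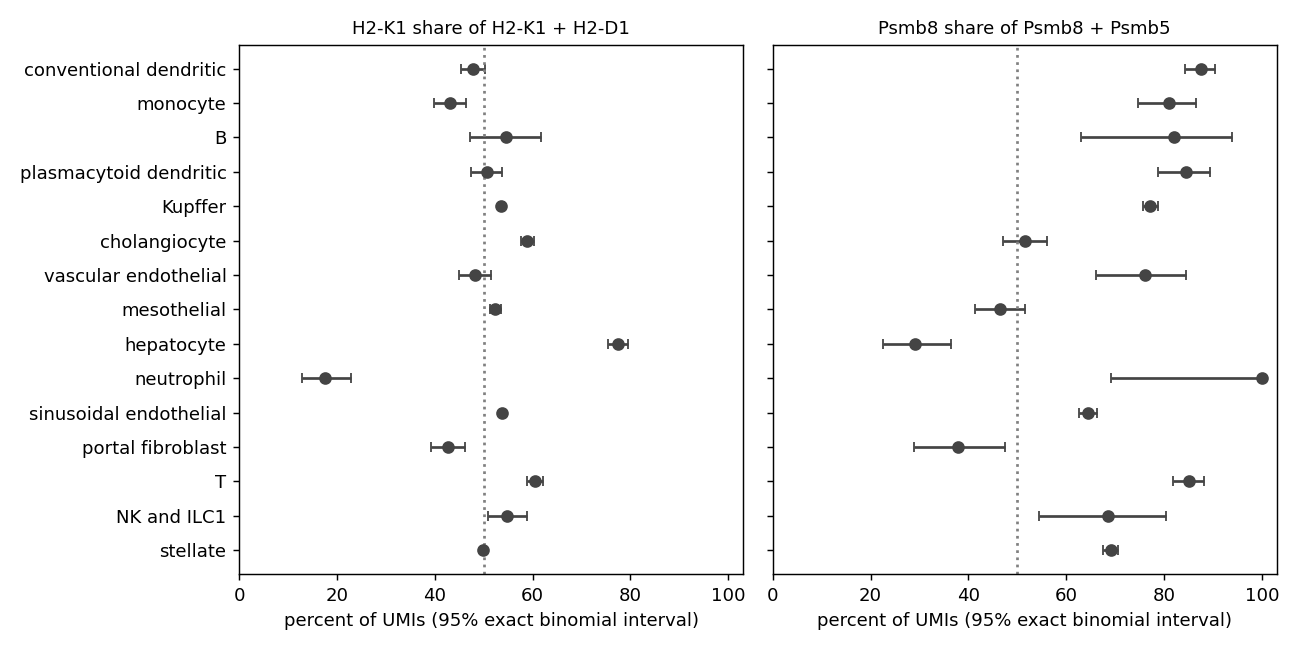
Share of H2-K1 in the UMIs of H2-K1 and H2-D1 (left) and of the immunoproteasome subunit Psmb8 in the UMIs of Psmb8 and its standard counterpart Psmb5 (right), in percent, by gated type, with exact binomial 95% intervals and a dotted line at 50%. On the left hepatocyte-like cells (77.4%) and neutrophil-like cells (17.5%) stand apart; on the right hepatocyte-like cells have the lowest share (29.1%), and the neutrophil-like point at 100% rests on 10 UMIs.

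B2m (chr2:122147686-122153083), the shared light chain, was highest in stellate-like cells at 4434 CPM (4395 to 4474), then 4075 in Kupffer-like, 3432 in monocyte-like and 3143 in sinusoidal endothelial-like cells. It was lowest in portal fibroblast-like cells at 849 CPM (780.0 to 922), a 5.22-fold range (4.81 to 5.69), with a median over types of 1880.1. Per heavy chain UMI it varied more: B2m made up 58.2% (56.6 to 59.7) of the B2m, H2-K1 and H2-D1 UMIs in hepatocyte-like cells and 18.5% (17.6 to 19.4) in cholangiocyte-like cells.

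Nonclassical class I genes divided by type. H2-Q10, which encodes a class I protein that the liver is known to secrete, was at 1675 CPM (1606 to 1746) in hepatocyte-like cells, above their H2-K1 level, and was seen in 79.7% of their thinned cells (84.4% unthinned, median depth 2190 UMIs). The second value was 602 CPM (421 to 833) in neutrophil-like cells, from 36 UMIs. All other types had 54.9 CPM or less, and in T-like cells 8.50% of thinned cells had a UMI (15.4% unthinned). Albumin (Alb), a hepatocyte product, was at 30761 CPM in hepatocyte-like, 819 in neutrophil-like and 458 in T-like cells. The 8 hepatocyte markers of the gate summed to 14877 CPM in hepatocyte-like, 284 in neutrophil-like (6 of the 8 seen) and 171 in T-like cells. The part of hepatocyte RNA in the neutrophil-like value was not tested.

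H2-Q7, which encodes the Qa-2 protein, had its highest levels in 3 types: 1516 CPM (1274 to 1791) in NK and ILC1-like, 1151 (1068 to 1239) in T-like and 1045 (905 to 1199.8) in plasmacytoid dendritic-like cells. The next type, conventional dendritic-like, had 304 CPM, B-like cells had 163 (84.3 to 285), and Kupffer-like cells had 61.5 (57.1 to 66.1). Its near copy H2-Q6 had the same leading types, with 516 CPM in NK and ILC1-like, 255 in plasmacytoid dendritic-like and 207 in T-like cells, and 15.3 in Kupffer-like cells. Together H2-Q6 and H2-Q7 made up 23.6% (20.6 to 26.7) of their UMIs with H2-K1 and H2-D1 in NK and ILC1-like cells and 1.67% (1.56 to 1.78) in Kupffer-like cells. H2-Q4 had another order, with 241 CPM in vascular endothelial-like, 232 in stellate-like, 181 in sinusoidal endothelial-like and 169.8 in T-like cells, against 30.4 (27.3 to 33.7) in Kupffer-like and 21.0 in hepatocyte-like cells.

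The promoters of 4 of these class I genes are shown because their levels differed so much by type. They cover the same stretch around the RefSeq start (GRCm38.p6): H2-K1 at chr17:34000323-34000522 (minus strand), H2-D1 at chr17:35262919-35263118, H2-Q7 at chr17:35438980-35439179 and H2-Q10 at chr17:35469914-35470113 (plus strand). Capitals mark the kappa B letters known from the class I enhancer and the Y box letters CTGATTGG, which stand here on the opposite strand. The kappa B letters come first in each line with capitals, and the H2-Q10 line has none. The matches did not overlap. The RefSeq start of H2-D1 lies downstream of its GENCODE start.
H2-K1: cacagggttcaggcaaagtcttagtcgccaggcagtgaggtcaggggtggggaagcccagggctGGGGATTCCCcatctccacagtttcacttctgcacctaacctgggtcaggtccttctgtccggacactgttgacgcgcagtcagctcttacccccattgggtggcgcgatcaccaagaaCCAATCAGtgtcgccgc
H2-D1: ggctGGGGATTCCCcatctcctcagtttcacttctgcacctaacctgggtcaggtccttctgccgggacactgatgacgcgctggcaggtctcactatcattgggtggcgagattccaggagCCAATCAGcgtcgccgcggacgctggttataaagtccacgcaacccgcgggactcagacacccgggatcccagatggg
H2-Q7: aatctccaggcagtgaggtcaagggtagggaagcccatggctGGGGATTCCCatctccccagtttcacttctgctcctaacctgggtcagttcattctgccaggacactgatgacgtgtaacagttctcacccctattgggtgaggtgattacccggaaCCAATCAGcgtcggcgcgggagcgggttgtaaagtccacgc
H2-Q10: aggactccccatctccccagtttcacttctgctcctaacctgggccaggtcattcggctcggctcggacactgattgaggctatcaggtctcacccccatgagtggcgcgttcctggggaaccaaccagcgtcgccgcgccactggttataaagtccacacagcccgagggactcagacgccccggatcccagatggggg
The kappa B letters, searched on both strands, were found in 4 of 28 members, H2-K1, H2-D1, H2-Q6 and H2-Q7, and in 35 of 32851 promoter windows (0.107%). They began 111 bases before the start in H2-K1, 171 in H2-D1 and 133 in H2-Q7. Neither set of letters is in the H2-Q10 window, which says nothing about binding there.

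The H2-T and H2-M genes had orders of their own. H2-T23, which encodes Qa-1, was at 749 CPM (631 to 881) in plasmacytoid dendritic-like cells, 360.4 in sinusoidal endothelial-like and 48.8 in hepatocyte-like cells, a 15.3-fold range (11.4 to 20.9). H2-T22 ran from 192 CPM in plasmacytoid dendritic-like to 40.8 in B-like cells. The B-like value rests on 3 UMIs, and hepatocyte-like cells had 46.5 CPM from 62 UMIs. H2-M3, which presents formylated peptides, ran from 125 CPM in plasmacytoid dendritic-like to 3 in hepatocyte-like cells, with 0 UMIs in neutrophil-like cells. H2-T24 was highest in sinusoidal endothelial-like (34.3 CPM, 31.3 to 37.4) and vascular endothelial-like cells (29.1). H2-T10 and H2-Q5 were highest in NK and ILC1-like cells at 44.0 and 54.9 CPM, from 4 and 5 UMIs. H2-M2 and H2-Q2 were each read almost in a single type. H2-M2 was at 130.4 CPM (99.0 to 169) in conventional dendritic-like cells and 2.05 or less elsewhere. H2-Q2 was at 33.1 (24.5 to 43.7) in cholangiocyte-like cells and 1.62 or less elsewhere. A level of 0 in B-like or neutrophil-like cells allows up to 40.8 or 50.2 CPM by the limit of 3 counts. H2-Bl was at 4.83 CPM in stellate-like and 3.38 in cholangiocyte-like cells, which did not differ beyond counting error (ratio 1.43, 0.576 to 4.59). Cd1d1, which presents lipids to NKT cells, was at 110.3 CPM (93.2 to 129.7) in hepatocyte-like and 50.6 (46.6 to 54.8) in Kupffer-like cells, and at 2.19 in stellate-like cells.

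**Figure D4:**
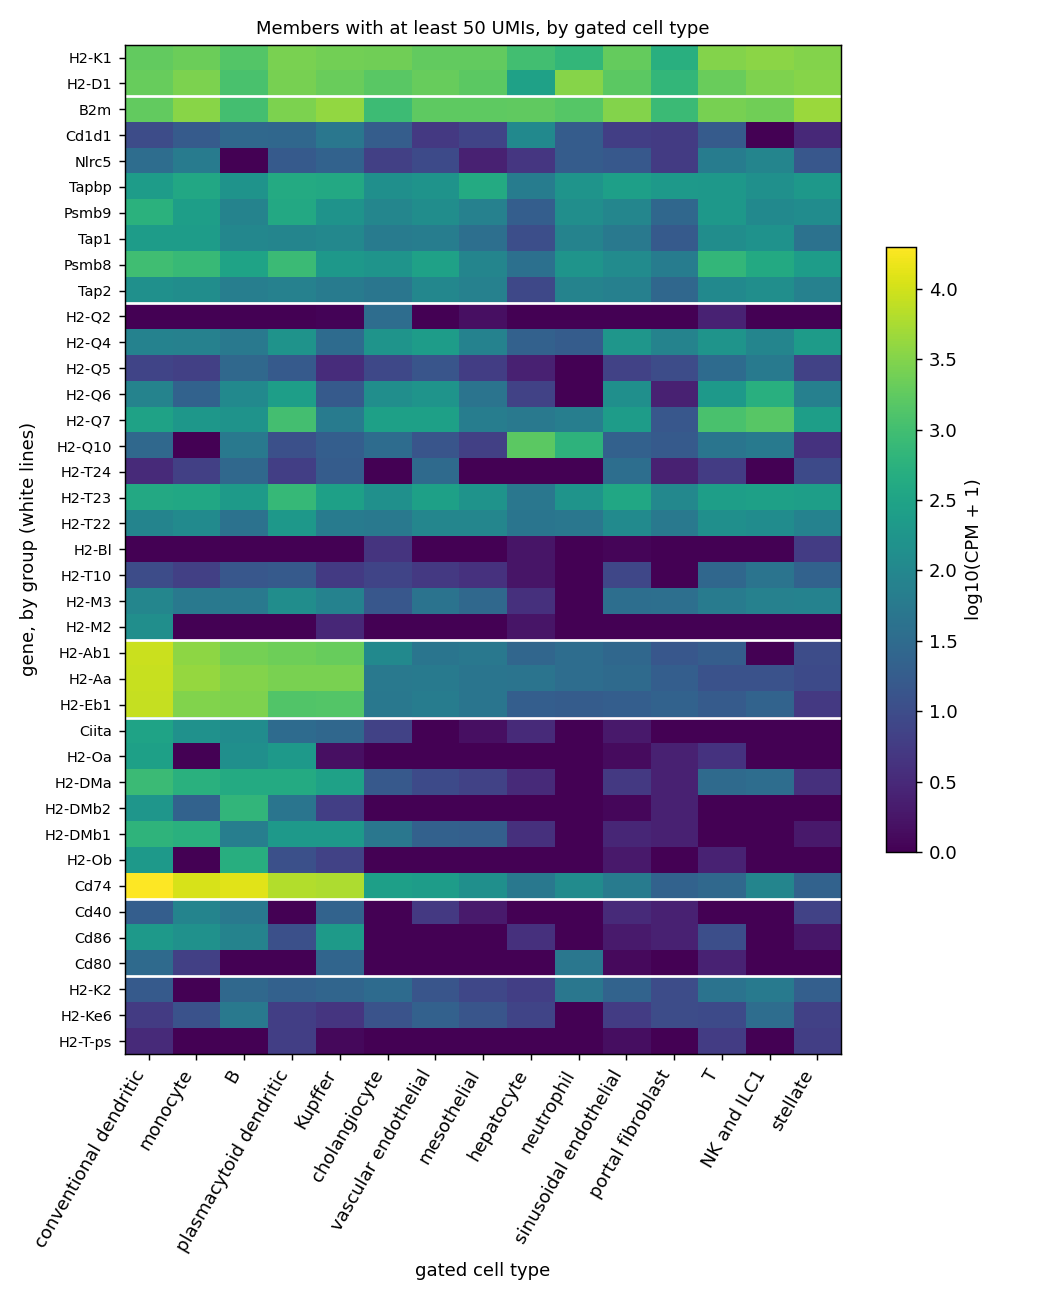
Level of the 39 members with at least 50 UMIs (rows, by group between white lines) in the 15 gated types (columns), as log10 of CPM plus 1. The class II block is bright in the 5 columns on the left and dark elsewhere, the H2-K1, H2-D1 and B2m rows are bright throughout, and H2-Q10 is brightest in hepatocyte-like cells.

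The peptide supply genes of class I were highest in dendritic-like, monocyte-like and T-like cells and lowest in hepatocyte-like cells. The interferon-inducible subunits Psmb8 and Psmb9 replace standard proteasome subunits and favour peptides that fit class I. Psmb8 was at 951 CPM (863 to 1046) in conventional dendritic-like, 853 in plasmacytoid dendritic-like, 793 in monocyte-like and 707 in T-like cells, and at 38.3 (28.5 to 50.3) in hepatocyte-like cells, 24.9-fold lower (18.6 to 33.9). Psmb9 spanned 30.5-fold (20 to 48.5), from 549 CPM in conventional dendritic-like to 18.0 in hepatocyte-like cells. The transporter genes Tap1 and Tap2 ran from 236 and 142 CPM in conventional dendritic-like to 9.76 and 7.51 in hepatocyte-like cells, and Tapbp from 426 in plasmacytoid dendritic-like and 423 in mesothelial-like to 63.8 in hepatocyte-like cells. Nlrc5, the coactivator of class I genes, was highest in NK and ILC1-like (87.9, 37.9 to 173) and T-like cells (63.1, 44.8 to 86.2). Stellate-like cells, with their high class I level, had 13.5 CPM of Nlrc5 (11.4 to 15.9), 40.9 of Tap1 (37.2 to 44.9) and 235 of Psmb8 (226 to 244).

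Set against its standard counterpart Psmb5, Psmb8 made up 87.6% (84.3 to 90.4) of the pair's UMIs in conventional dendritic-like, 85.2% (81.8 to 88.1) in T-like, 77.1% in Kupffer-like, 69.1% in stellate-like and 64.4% in sinusoidal endothelial-like cells. It made up 51.5% in cholangiocyte-like, 46.4% in mesothelial-like, 37.8% in portal fibroblast-like and 29.1% (22.5 to 36.5) in hepatocyte-like cells. The other 2 inducible subunits had their lowest well-counted share in hepatocyte-like cells too, 11.6% (7.57 to 16.8) for Psmb9 against Psmb6 and 14.2% (9.41 to 20.3) for Psmb10 against Psmb7.

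Each of 6 main types was then set against the mean level of the other 14. Genes with 50 or more UMIs in all were called higher or lower from a 2-fold difference on. Not every member could be called in every type, since a gene at 0 in a small type stays undecided. The background is the share of all such genes called. Because the mean of the others is pulled up by the few types rich in a gene, counts against their median are given where they differ.

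In conventional dendritic-like cells 16 of 37 members were higher, against 8.07% of all genes, and 4 were lower, against 32.3% (1 against the median, and 1 with cells thinned to 1500 UMIs). All 3 class II chains and all 7 partners were among the higher ones, as were Cd80, Cd86, Psmb8, Psmb9, Tap1 and H2-M2. The lower ones were Cd1d1, H2-Ke6, H2-Q10 and H2-T24, and the median member stood at 0.90 on the log2 scale, against -0.49 for all genes. In B-like cells 13 of 33 members were higher (22.4% of all genes) and 6 lower (18.7%), the lower count being at the background. Class II chains and partners made up 9 of the 13, with H2-DMb2 at 5.22 and H2-Ob at 4.91 on the log2 scale. The other 4, Cd40, H2-Ke6, H2-Q5 and H2-T24, rested on 2 to 4 UMIs in these cells. B2m (-1.19, from 76 UMIs) and Psmb9 (-1.05, from 6 UMIs) were among the 6 lower ones, and the others rested on 3 to 12 UMIs. Of these 6 lower ones, 2 were lower against the median of the other types. H2-Q10, lower against the mean in both types, changed sign against the median. It was higher in B-like cells (log2 1.5) and within 2-fold in conventional dendritic-like cells (0.48).

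In Kupffer-like cells 4 of 39 members were higher (11.6% of all genes) and 14 lower (34.8%), both near the background. The count of higher ones was 7 with cells thinned to 1500 UMIs and 7 with the mean of CPM over cells. Against the mean of summed levels these were Cd86 (log2 2.73), Cd80 (1.99), Cd1d1 (1.43) and H2-T24 (1.02). The lower ones included 9 of 13 nonclassical class I genes, among them H2-Q6 (-3.03) and H2-Q7 (-2.71), and the class II partners H2-Oa, H2-Ob and H2-DMb2. Their class II chains were within 2-fold of a mean dominated by dendritic-like and monocyte-like cells. Against the median of the other types 12 members were higher and 5 lower.

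In sinusoidal endothelial-like cells 1 of 39 members, H2-T24 (log2 2.25), was higher (16.4% of all genes) and 22 were lower (28.9%), of which 7 were lower against the median. All class II chains, partners and costimulatory genes were among the 22, while both classical heavy chains were within 2-fold. Against the median, 2 members were higher, and Cd40 changed sign, from lower to a log2 of 0.85, which is within 2-fold. In stellate-like cells 5 of 39 were higher (14.6%): B2m (log2 1.06), H2-Q4 (1.17), H2-T10 (1.12), H2-Bl and H2-T-ps. With cells thinned to 1500 UMIs 3 were higher. There, 20 were lower (26.5%), 11 of them against the median. Each of the 13 class II and costimulatory members tested was lower, and Tap1 was at -1.25, but Cd40 was higher against the median (log2 2.25). In hepatocyte-like cells 2 of 38 were higher (11.7%), H2-Q10 (log2 4.70) and Cd1d1 (2.93), and 31 lower (51.8%). The lower ones included H2-K1 (-1.08), H2-D1 (-2.87) and 6 of the 8 class I partners, and all 13 class II and costimulatory members tested. Against the median, 4 members were higher, and Cd86 (log2 1.21) and Ciita (1.64), each from at most 4 UMIs, turned from lower to higher. The median member stood at -3.22 against -1.06 for all genes. With scaling by the median of ratios in place of total UMIs, the classical class I level of hepatocyte-like cells was 2379.7 CPM instead of 1292.

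Genes of the same routes outside the symbol rule were read beside them. Of 13 class II route genes, 6 were higher (11.6% of all genes) and 1 lower (34.8%) in Kupffer-like cells. The higher ones were Lgmn, a lysosomal protease (3895 CPM, log2 4.96), Cd83 (1224, 3.17), Ctss, which trims the invariant chain (2349, 2.95), March1, a ligase that removes class II from the surface (157, 2.18), Ifi30 (861, 2.16) and Ctsh (874, 1.79). In conventional dendritic-like cells Ifi30, March1 and Cd83 were higher (8.07% of all genes) and Lgmn (38.2 CPM), Ctsl (13.5 CPM) and Nfyc lower (32.3%). In stellate-like cells 1 of 13 was higher (14.6% of all genes), the protease Ctsl at 1047 CPM, and 6 were lower (26.5%). In sinusoidal endothelial-like cells Ctsl alone was higher (16.4% of all genes), at 1297 CPM, and 5 were lower (28.9%). The higher counts in both types were below the background. Of the factors that assemble with Ciita on class II promoters, Rfx5 stood between 3.75 and 18.0 CPM in the 6 main types. Rfxap stood between 13.6 and 28.5 CPM there, and its 13.6 CPM in B-like cells rests on 1 UMI. Nfya spanned more, with 3.75 CPM in hepatocyte-like (log2 -3.31) and 48.4 in Kupffer-like cells. Rfxank was lower in Kupffer-like cells (5.20 CPM, log2 -1.12).

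Among class I route genes, 2 of 13 were higher in Kupffer-like cells (11.6% of all genes) and 0 lower (34.8%). The chaperone Canx was among the higher ones (687 CPM, log2 1.41). In stellate-like cells 1 of 13 was higher (14.6% of all genes), the loading complex oxidoreductase Pdia3 at 533 CPM (log2 1.79). In conventional dendritic-like cells 1 of 13 was higher (8.07%), the proteasome activator Psme1 at 798 CPM. Both counts were below the background, and 0 were lower in either type (26.5% and 32.3%). In hepatocyte-like cells 7 of 13 were lower, near the background of 51.8%. They included the inducible proteasome subunit Psmb10 (log2 -2.94) and the tapasin relative Tapbpl (-2.29). In B-like cells 7 of 13 were lower against 18.7% of all genes, among them Canx (-1.89) and the peptide-trimming enzyme Erap1 (-1.77). Of the 13, 0 were higher in hepatocyte-like and in B-like cells (11.7% and 22.4% of all genes). Of the 6 co-signal genes in the table, 5 could be called in Kupffer-like and in conventional dendritic-like cells. In Kupffer-like cells 1 was higher (11.6% of all genes), the inhibitory ligand Cd274 (132 CPM, log2 1.75), and 2 were lower (34.8%). In conventional dendritic-like cells 2 were higher (8.07%) and 0 lower (32.3%). The higher ones were Tnfsf9, a costimulatory ligand for T cells (236 CPM, log2 4.17), and Icosl (1.73). All 5 that could be called were lower in hepatocyte-like cells, where 51.8% of all genes were.

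From cell to cell, class II genes varied together more than class I genes in Kupffer-like and sinusoidal endothelial-like cells, but not in stellate-like cells. Over 2111 thinned Kupffer-like cells, which share a library and a fixed depth, Pearson's r was 0.61 between H2-Aa and H2-Ab1, 0.58 between H2-Ab1 and H2-Eb1 and 0.60 between H2-Aa and Cd74. It was 0.06 between H2-K1 and H2-D1, 0.18 between H2-K1 and B2m and 0.03 between H2-Aa and H2-K1. The variance of H2-Aa was 2.72 times its mean and that of H2-D1 1.22 times. In 2604 sinusoidal endothelial-like cells r was 0.28 between H2-Aa and H2-Ab1, 0.42 between H2-Ab1 and H2-Eb1, 0.38 between H2-Aa and Cd74 and 0.12 between H2-K1 and H2-D1. In 2189 stellate-like cells, which held class II traces, these values were 0.01, -0.01, 0.02 and 0.21. These values are descriptions, since cells are not replicates and counts of a few UMIs limit r.

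Conventional dendritic-like cells fell into 18 cells of the type 1 gate and 20 of the type 2 gate. Class II chains were 27348 CPM (26714 to 27994) and 24143 (23443 to 24858), while classical class I was 2834 (2633 to 3048) in type 1 and 5188 (4867 to 5526) in type 2. Type 1 had more H2-DMb1 (795 against 402 CPM), Psmb9 (671 against 380.2), H2-Ob (275 against 118) and Cd86 (283 against 118), and type 2 more H2-DMb2 (273 against 112). All 58 H2-M2 UMIs were in type 2 cells, at 311 CPM (236 to 401). Depth differed too, with medians of 14058 and 8911 UMIs.

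Kupffer-like cells were read apart by depth, since 576 of them had under 2000 UMIs. These had 5988 CPM (5808 to 6171) of classical class I against 4435 (4396 to 4475) in the 1936 deeper cells, a difference that lay in H2-K1 (3924 against 2334 CPM) and not in H2-D1 (2064 against 2101). Class II differed less, 5626 (5452 to 5804) against 6081 (6035 to 6127). In sinusoidal endothelial-like cells classical class I was 3344 CPM in the 383 shallow and 3524 in the 2462 deeper cells. The part of RNA quality in these values was not tested.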

How the data were processed

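Both samples, dissociated livers of healthy mice, went through 10x Chromium 3' v2 chemistry. The deposited table holds the authors' raw UMI counts for 22508 genes and 9703 cells, made with Cell Ranger 2.1.1, with Seurat 3.1 and the build GRCm38 also named, per the submitters' processing notes. How reads shared by near-identical genes were counted is not given in the sources used here. The ending of each cell barcode was read as the replicate number, and 0 columns were left unmapped.

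Cells needed 200 detected genes and no more than 20% of UMIs from mitochondrial genes. A cell entered the type with the largest share of its markers seen, if 3 or more were seen, no other type tied, and no other type had a share of its markers at 2 or more UMIs above 0.5 of that share. 19 gates used 134 markers and no member gene. The lists of the 2 conventional dendritic subtypes were pooled. Doublets were handled by this limit alone, with a doublet score as an alternative. Counts were summed per type and expressed as CPM. Each type was compared with the unweighted mean of the other 14 types that had at least 20 cells. A gene needed 50 UMIs and a 2-fold difference, and a level of 0 was set to 3 counts. With 1 library per type no test was possible. Shares of cells are given also after thinning each cell to 1500 UMIs. Every member was named by the symbol rule, and outside genes came from 3 route lists. 1 gene of these lists is not reported here. The members, markers and lists were chosen with earlier results of these data known. The comparison was tested on simulated data first. Python 3.11.15 was used with numpy 2.4.6, scipy 1.17.1, pandas 2.3.3, scanpy 1.11.5 and matplotlib 3.10.9. Alternatives changed the gate, the cell filters, the scaling, the summary over cells, the reference of other types and the library used.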

Additional observations from a re-analysis of the deposited data

Results flagged for a closer look

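Class II was also present in cells that the report leaves out. In the 465 cells of replicate 1 that entered no type, the class II chains H2-Aa, H2-Ab1 and H2-Eb1 summed to 4842 CPM (4769.7 to 4916), which drew attention because these cells are in no comparison. The 142 such cells of replicate 2 had 19.1 CPM (11.1 to 30.5). Split at 40% of a list's markers seen, the level was 3915 CPM in 15 cells with both Kupffer and sinusoidal endothelial markers, 3715 in 38 with Kupffer markers only and 330.1 in 140 with sinusoidal markers only. In the 272 cells with neither it was 11042 CPM, at a median depth of 3040.5 UMIs. A class II UMI was seen in 116 of these (42.6%), and 16 cells held 50% of the class II UMIs. Among the marker lists the highest there were sinusoidal endothelial at 1473 CPM (14766 in the gated type, with 3 markers seen in 54 cells), vascular endothelial at 1099.8 (4088, 47 cells), monocyte at 894 (5583, 17 cells), portal fibroblast at 635 (8095, 11 cells) and conventional dendritic type 2 at 450.5 (1779, 11 cells). The Kupffer list stood at 315 CPM (18972, 8 cells). The myeloid lectin Mgl2, picked after its values were seen, was at 168 CPM there and at 2.13 in Kupffer-like cells. The identity of these cells was not tested.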

How the results depend on the processing

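The counts of members called against the other types depended most on the reference. Against the median of the other types in place of their mean, 12 members were higher in Kupffer-like, 4 in hepatocyte-like and 2 in sinusoidal endothelial-like cells, and 2 were lower in B-like, 5 in Kupffer-like, 1 in conventional dendritic-like, 7 in sinusoidal endothelial-like and 11 in stellate-like cells. Of 100 called differences that could be recomputed so, 77 stayed called in the same direction, 17 fell under the threshold and 6 changed direction. Those 6, on the log2 scale, were Cd40 in sinusoidal endothelial-like (0.85) and stellate-like cells (2.25), Cd86 (1.21) and Ciita (1.64) in hepatocyte-like cells, and H2-Q10 in B-like (1.5) and conventional dendritic-like cells (0.48). The values of 0.85 and 0.48 changed sign but are within 2-fold. With cells thinned to 1500 UMIs, 7 members were higher in Kupffer-like and 3 in stellate-like cells and 1 was lower in conventional dendritic-like cells, and with the mean of CPM over cells 7 were higher in Kupffer-like cells. The causes were not tested. Under the other settings no called difference changed direction and each count stayed within 1.5 times.

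Without replicate 2, which removes stellate-like cells, the counts of the other 5 types ranged from 1 to 17 higher and from 5 to 33 lower, each within 1.5 times of the value with it. Without replicate 1 only stellate-like cells were left and no comparison could be made. Restricting to cells of 2000 UMIs or more was added after the data were seen, left too few neutrophil-like cells and changed no count by over 1.5 times. No paired analysis was possible because no type had 20 cells in both replicates and there was 1 group. Types of 26 to 38 cells set the limit of depth: 3 counts amount to 50.2 CPM in neutrophil-like and 40.8 CPM in B-like cells, but to 0.201 CPM in sinusoidal endothelial-like cells.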
